A study of Mus musculus with 6 samples.

Results

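The miR-297, miR-466, miR-467 and miR-669 miRNAs of mouse are a large group of repeat-derived miRNAs, most of which are encoded in 1 intron of Sfmbt2. They were followed here in exosomes, the small vesicles that cells release, from 2 cell types of cultured mouse dorsal skin. Every mature miRNA whose name begins with mmu-miR-297, mmu-miR-466, mmu-miR-467 or mmu-miR-669 was taken, whatever its reads. This gave 80 of the 1964 mature miRNAs listed: 6 of the miR-297 family, 31 of miR-466, 13 of miR-467 and 30 of miR-669. Reads were assigned to 40 of them in at least 1 library, 8 of these with less than 1 read in total, and the other 40 stood at 0 in every library.

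Sfmbt2 encodes a Polycomb-group protein and is imprinted, being expressed from the paternal copy in early mouse development and placenta. Its miRNA-bearing intron is known from rodents, and the miRNAs are best known from mouse embryonic stem cells and placenta. Each hairpin precursor can yield a mature miRNA from its 5′ strand (5p arm) and one from its 3′ strand (3p arm), and bases 2 to 8 of the mature miRNA, the seed, pair with target mRNAs.

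The 6 libraries fell into 2 groups of 3. Epidermal stem cells (ESC; these are skin cells, not embryonic stem cells) came from 3-week-old C57BL/6 mice, whose hair follicles were at rest, and grew without serum in a keratinocyte medium. Dermal fibroblasts (Fb) came from 14-week-old db/db mice, which lack a working leptin receptor and become obese and diabetic, and were grown in DMEM with fetal bovine serum, then in serum-free medium for collection. All 6 libraries carry the strain label C57BL/6, so the donor strain of the Fb rests on the protocol. Cell type, donor strain, age and medium changed together and cannot be told apart. No label says which animals gave a library, so every p-value reflects library-to-library spread, which may be technical.

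Reads assigned to any RNA numbered 9894485 to 11149046 in ESC and 6914504 to 8691350 in Fb libraries. Mature miRNA reads numbered 1392859 to 1522604 in ESC (13.3% to 14.7% of all assigned reads) and 49019 to 177990 in Fb (0.613% to 2.05%). One read was therefore worth far more in an Fb library, and a count of 0 was weaker evidence there: 3 reads, the upper limit that a count of 0 allows, came to 1.97 to 2.15 CPM (reads per 1000000 mature miRNA reads) per ESC library and to 16.9, 25.3 and 61.2 CPM per Fb library. Levels are given in CPM of mature miRNA reads, written simply as CPM, and, where stated, in CPM of all assigned reads. Since each library came from a whole culture, fewer cells making a miRNA and fewer copies per cell cannot be told apart. The cell types were checked on marker miRNAs. The 7 keratinocyte and epithelial markers together took 59872 to 74600 CPM of the ESC and 7457 to 14174 CPM of the Fb libraries, and the 5 fibroblast markers at 174 to 209 CPM and 192878 to 299270 CPM. Markers of other cells were also higher in Fb or overlapped: 5 of 6 haematopoietic markers had reads (0.957 to 4.60 CPM in ESC, 36.5 to 143.2 CPM in Fb, miR-142a-3p at 0), as did 3 of 3 muscle markers (123 to 161 CPM and 466.2 to 1714 CPM) and 2 of 2 endothelial markers (77.1 to 120 CPM and 109 to 347 CPM). Their part in the results was not tested.

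In the GENCODE M21 annotation of GRCm38, 71 hairpin genes of the 4 families lay in intron 11 of Sfmbt2 (counted along an annotated transcript of 23 exons; gene at chr2:10370510-10595253, plus strand). All 71 were on the strand of the gene, within 51617 bases of an intron of 62472 bases (chr2:10461473-10523944). A further 10 hairpins lay elsewhere in the genome. By hairpin name, 66 of the 80 mature miRNAs came from the intron alone, 5 from the intron and another site, and 9 from other sites only. The intron alone held 5506 of the ESC reads and 72 of the 76 Fb reads, the 5 shared names held 142.3 and 4, and the 9 others held 5.90 and 0.

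A repeat character shows in the sequences of those miRNAs of the families that have an entry in the RefSeq table (GRCm38.p6), which covered 8 of the 80. These are given 5′ to 3′ with the seed in capitals. All 8 come from hairpins outside the intron, so they are shown as examples and not because they carried reads.
mmu-miR-466i-3p: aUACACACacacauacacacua
mmu-miR-466k: uGUGUGUGuacauguacauguga
mmu-miR-466j: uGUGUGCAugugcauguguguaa
mmu-miR-466q: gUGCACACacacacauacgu
mmu-miR-467f: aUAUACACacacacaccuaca
mmu-miR-467g: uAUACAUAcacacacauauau
mmu-miR-467h: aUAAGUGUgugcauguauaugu
mmu-miR-669n: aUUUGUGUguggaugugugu

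All 8 held ACACA or GUGUG, 4 with each motif, searched on the printed strand and anywhere in the mature sequence. Over 1679 RefSeq mature mouse miRNAs, 83 (4.94%) held either motif, 29 (1.73%) ACACA and 54 (3.22%) GUGUG. The 8 seeds were all different, although all 8 sequences held a repeat motif. Whether miRNAs of the intron, miR-669c-5p among them, hold these motifs or share seeds was not tested, since none of their sequences was at hand. Mature miR-466i-3p lies at chr13:17747552-17747573 (plus strand) within the span of Cdk13, on the strand opposite to that gene, and had 2.30 reads over the ESC libraries. Mature miR-466k lies at chr3:85467396-85467418 (plus strand) within the span of Gm37240, also on the opposite strand, and had 0.25 read. Mature miR-466j, at chr10:60960802-60960824 (plus strand) in no annotated gene, had 0.0909 read. Mature miR-466q lies at chr3:28419988-28420007 (plus strand) on the same strand as its host Tnik and stood at 0. Also at 0 were miR-467f (chr11:69635419-69635439, minus strand, in Fxr2), miR-467g (chr5:34732872-34732892, minus strand, in Grk4) and miR-669n (chr3:115979905-115979924, plus strand, in Slc30a7), each on the strand opposite to its host. So was miR-467h (chr9:115381898-115381919, plus strand, in no gene). The deposited values are estimated counts and need not be whole. How reads that match several such sequences were assigned is not given in the labels used, so values of single miRNAs are uncertain.

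Taken as 1 sum, the 80 miRNAs were higher in ESC exosomes on every scale. They held 1789, 1796 and 2069 reads in the ESC libraries and 20, 27 and 29 in the Fb libraries. Of mature miRNA reads this was 1285, 1214 and 1359 CPM in ESC and 408, 152 and 244 CPM in Fb. The groups did not overlap, and their means were 1286 ± 72.3 and 268 ± 130 CPM (SD, n = 3 each), a ratio of 4.80. In CPM of all assigned reads the sums were 181, 161 and 199.5 in ESC and 2.50, 3.11 and 4.19 in Fb, with means of 180.5 ± 19.2 and 3.27 ± 0.857 (SD, n = 3 each) and a ratio of 55.2. The larger ratio carries the lower share of mature miRNAs in Fb libraries.

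In edgeR's quasi-likelihood test on mature miRNAs, with these 80 entered as 1 sum, the log2 fold change of ESC over Fb was 2.78 (SE 0.38, Benjamini-Hochberg adjusted p = 9.86e-04). Of the 322 features tested there 50.0% passed at an adjusted p of 0.05. Those that passed as higher in ESC were 22.0% of the 322, and the median log2 fold change was -0.15. In a fit of 2995 RNAs of every class the sum's log2 fold change came to 3.84 (SE 1.08, edgeR adjusted p = 0.0464), where 3.61% of features passed as higher in ESC. These fits rescale the libraries by edgeR's TMM factors, so their fold changes need not match the ratios of mean CPM. Exact two-sided permutation tests on the shares gave p = 0.1 on both scales, the smallest value that 3 against 3 libraries allow, or 0.2 and 0.117 after adjustment over the 14 sums compared.

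**Figure D1:**
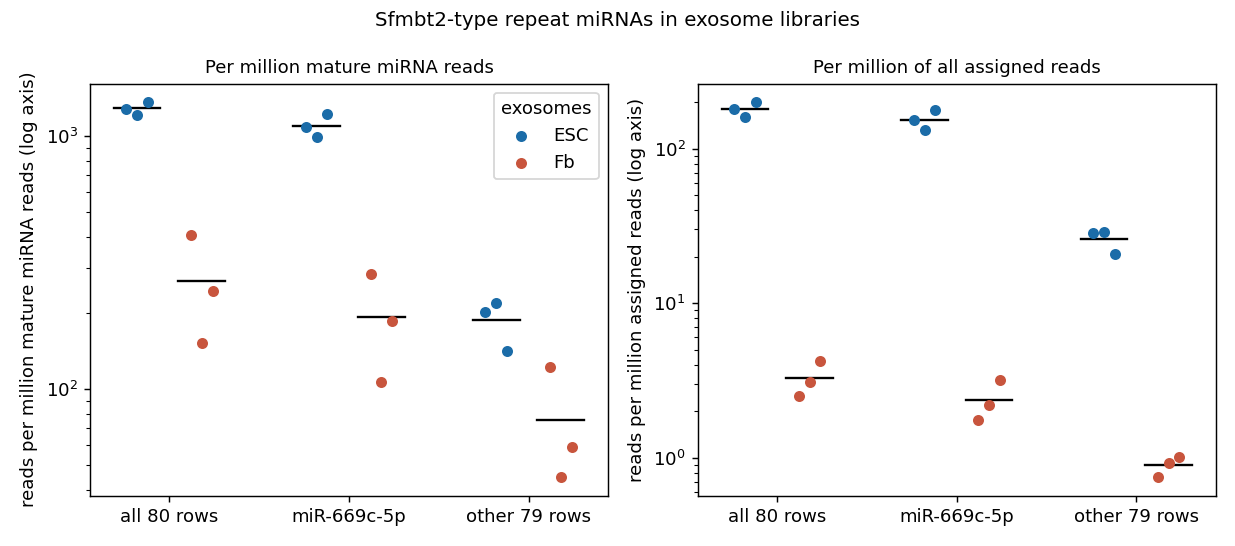
Level of all 80 miRNAs together, of miR-669c-5p and of the other 79, in CPM of mature miRNA reads (left) and in CPM of all assigned reads (right), on logarithmic axes; points are libraries and lines are group means. ESC points lie above Fb points throughout, with miR-669c-5p at 995 to 1217 CPM in ESC and 107 to 286 CPM in Fb on the left.

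Most of the signal was 1 miRNA. mmu-miR-669c-5p held 1508, 1471 and 1853 reads in ESC and 14, 19 and 22 in Fb. This was 1083, 995 and 1217 CPM in ESC, and 286, 107 and 185 CPM in Fb, where the exact 95% intervals ran from 156 to 479, from 64.3 to 167 and from 116 to 280 CPM. Every ESC library lay above every Fb library and above the upper bounds of their intervals. The means were 1098 ± 112 and 192.5 ± 89.7 CPM (SD, n = 3 each), a ratio of 5.70. In CPM of all assigned reads it had 152, 132 and 179 in ESC and 1.75, 2.19 and 3.18 in Fb, a ratio of 65.0 between the means. The log2 fold change was 3.01 (SE 0.38, edgeR adjusted p = 7.16e-04) among mature miRNAs and 4.09 (SE 1.09, edgeR adjusted p = 0.0367) among RNAs of every class, where 3.63% of those listed singly were called higher in ESC. By mean CPM it ranked 68 of 980 mature miRNAs with reads in ESC and 162 of 638 in Fb, and by log2 fold change 30 of 325 tested. The fit of all RNAs listed singly was run in its main setting only. Whether its call of miR-669c-5p depends on a single library was not tested.

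The share of miR-669c-5p within the reads of all 80 miRNAs was 84.3%, 81.9% and 89.6% in the ESC libraries. In the Fb libraries it was 70.0% (exact 95% interval 45.7% to 88.1%), 70.4% (49.8% to 86.2%) and 75.9% (56.5% to 89.7%). The means were 85.3% ± 3.91 and 72.1% ± 3.28 (SD, n = 3 each), without overlap, but each Fb interval reached past the lowest ESC share and the exact two-sided permutation test gave p = 0.1, or 0.45 adjusted over 9 shares. Without miR-669c-5p the other 79 miRNAs held 202, 219 and 141.8 CPM in ESC and 122, 44.9 and 58.9 CPM in Fb, again without overlap. These Fb levels rest on few reads, since miR-669c-5p took 14, 19 and 22 of the 20, 27 and 29. In Fb replicate 1, 1 read is worth 20.4 CPM, so 1 more read there would make the groups overlap. The log2 fold change of the other 79 was 1.87 (SE 0.40, edgeR adjusted p = 0.00702) in a fit that called 22.3% of features higher in ESC. In CPM of all assigned reads their means differed by a ratio of 29.2.

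**Figure D2:**
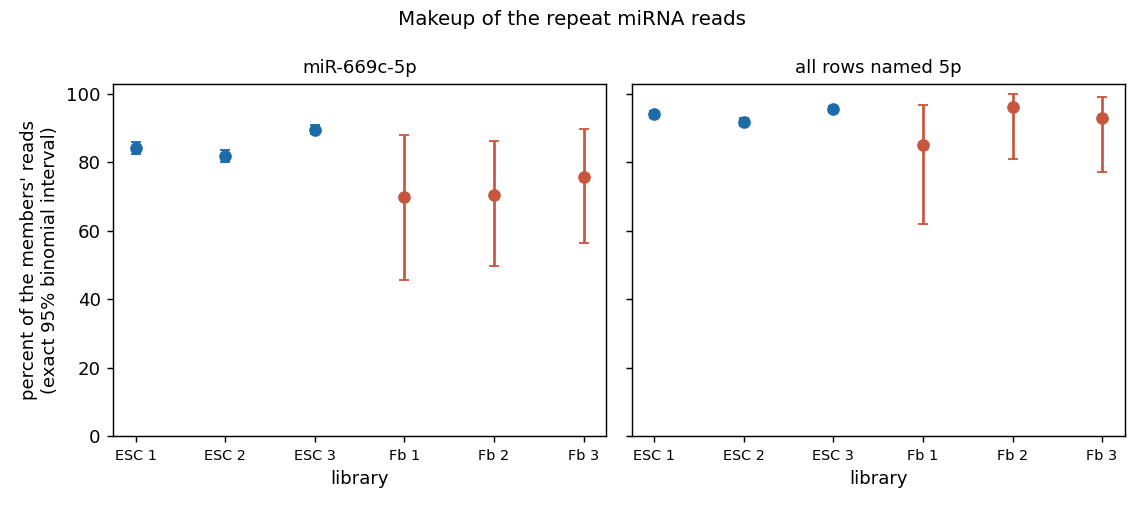
Percent of the reads of the 80 miRNAs that belong to miR-669c-5p (left) and to miRNAs named 5p (right) in each library, with exact 95% binomial intervals. miR-669c-5p takes 81.9% to 89.6% in ESC and 70.0% to 75.9% in Fb libraries, where the intervals are wide because they rest on 20 to 29 reads.

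The families ranged from 1 that dominated in both cell types to 1 with no Fb read. miR-669 had 1665, 1622 and 1969 reads in ESC and 17, 27 and 26 in Fb, with mean levels of 1195 ± 98.3 and 239 ± 99.1 CPM (SD, n = 3 each) that did not overlap. miR-466 had 64.5, 103.5 and 66.3 reads in ESC and 3, 0 and 1 in Fb. Its CPM overlapped between the groups (53.3 ± 14.5 and 23.2 ± 33.2 CPM, SD, n = 3 each), because 3 reads in Fb replicate 1 are worth 61.2 CPM, whereas its levels in CPM of all assigned reads did not (means of 7.40 and 0.173). miR-467 had 52, 48 and 19 reads in ESC and none in Fb. Set against 3 reads over the 3 Fb libraries, the limit that a count of 0 allows, miR-467 was at least 3.12-fold higher in ESC per miRNA read and at least 29.8-fold higher per assigned read. miR-297 had 8, 22 and 14.4 reads in ESC and 0, 0 and 2 in Fb. Its CPM overlapped (means of 10.0 and 5.61 CPM), and in CPM of all assigned reads the means were 1.39 and 0.0964, without overlap.

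Split by arm, 9 of 11 family sums had any read, counting miRNAs with no arm in the name as a sum of their own. Within the mature miRNA fit, 3 of them passed the filter on low counts and 2 were called higher in ESC, where 22.2% of 324 features were. The miR-669 5p sum averaged 1166 ± 110 CPM in the ESC and 237 ± 102 CPM in the Fb libraries (SD, n = 3 each), and its log2 fold change came to 2.78 (SE 0.35, edgeR adjusted p = 7.17e-04). The miR-669 3p sum had 47, 57 and 24 reads in ESC and 0, 1 and 0 in Fb. It was called at an edgeR adjusted p of 0.0196, with a log2 fold change of 3.61 (SE 0.97). Without Fb replicate 3 this call was lost (log2 fold change 3.04, edgeR adjusted p = 0.0841), and without Fb replicate 2, which held its only Fb read, the fitted value was 7.77. Its adjusted p ran from 0.00242 to 0.0841 over 12 alternatives, and without any 1 ESC library it did not pass the filter and was not tested. The miR-466 3p sum had 37.5, 62.1 and 52.4 reads in ESC and 2, 0 and 0 in Fb and did not pass, at a log2 fold change of 2.76 (SE 1.08, adjusted p by edgeR = 0.0699), although without Fb replicate 1, which held both Fb reads, the fitted value was 8.05 and the adjusted p 0.00556, the lowest of a range that reached 0.167. It also passed with DESeq2, with no count filter and with a library size without the 3 most abundant miRNAs. The filter was at 12.7 CPM: the miR-669 5p sum reached it in every Fb library, the miR-466 3p sum in 1 and the miR-669 3p sum in 0, so these last entered the test through their ESC reads and their calls are no independent support.

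On the scale of all RNAs, where 3.6% of 2998 features were called higher in ESC, 4 arm sums were tested and 3 called. The log2 fold change was 4.99 (SE 0.71, edgeR adjusted p = 0.0138) for miR-466 3p and 5.39 (SE 1.07, edgeR adjusted p = 0.0149) for miR-669 3p. The miR-467 5p sum, with 50, 47 and 19 reads in ESC and none in Fb, passed at an edgeR adjusted p of 0.0138 and was at least 29.1-fold higher in ESC per assigned read. The miR-669 5p sum, the best covered of the 4, was not called, at a log2 fold change of 3.81 (SE 1.10, adjusted p by edgeR = 0.0508). With scaling by library totals alone this sum had a log2 fold change of 5.79, so its size depends on the scaling. It was called in 6 of 13 alternatives, namely by DESeq2 (adjusted p = 4.50e-04), by limma-trend (0.0421), after scaling by library totals alone (8.39e-04) or by upper quartiles (0.0166), without a count filter (0.00541) and without Fb replicate 1 (0.00447), and its adjusted p ranged up to 0.199. The other 3 sums reached the filter of 1.08 CPM of all assigned reads in 3 ESC and 0 Fb libraries, so they entered the test through their ESC reads and their calls are no independent support. Without ESC replicate 1 the number of calls was 1, and without ESC replicate 2, ESC replicate 3 or Fb replicate 3 it was 0, with 4, 5 and 5 sums at an unadjusted edgeR p under 0.05. The whole fit then made 10, 0, 0 and 0 calls among all RNAs, and in these 4 fits the log2 fold change stayed at 4.80 to 5.11 for miR-466 3p and at 5.12 to 5.60 for miR-669 3p. Without Fb replicate 1 the miR-669 3p sum was not called (log2 fold change 3.58, edgeR adjusted p = 0.0528, in a range from 3.88e-05 to 0.0803), and without Fb replicate 2, which held its only Fb read, the fitted value was 8.17. That of miR-466 3p was 8.06 without Fb replicate 1, which held both of its Fb reads.

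Among single miRNAs, 4 of the 80 passed the count filter and 76 did not. Of these 4, 2 were called higher in ESC, where 21.8% of the 325 mature miRNAs tested were. miR-669c-5p reached the filter of 12.7 CPM in 3 Fb libraries, miR-669a-5p in 2, miR-466f-3p in 1 and miR-669o-3p in 0, so that the filter in part fixed their direction. After miR-669c-5p, the most abundant was mmu-miR-669a-5p, whose name covers 12 hairpin copies in the intron. It had 75.9, 66 and 62 reads in ESC and 0, 7 and 2 in Fb, with mean levels of 46.6 ± 7.12 and 18.7 ± 19.7 CPM (SD, n = 3 each). Its log2 fold change of 1.29 (SE 0.65, adjusted p by edgeR = 0.133) did not pass, except without Fb replicate 2, which held 7 of its 9 Fb reads (log2 fold change 2.62, edgeR adjusted p = 0.0423, in a range up to 0.390).

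mmu-miR-669o-3p had 45, 50 and 22 reads in ESC and 0, 1 and 0 in Fb. It was called with a log2 fold change of 3.48 (SE 0.98, adjusted p by edgeR = 0.0226), but not without Fb replicate 3 (log2 fold change 2.91, edgeR adjusted p = 0.0963; range from 0.00424). Without Fb replicate 2, which held its only Fb read, the fitted value was 7.64. It was tested through its ESC reads alone, so the call is no independent support. The opposite arm, miR-669o-5p, had 5.02, 5 and 2 reads in ESC and 2, 0 and 0 in Fb, so its groups overlapped. mmu-miR-466f-3p, with 3 hairpin copies in the intron and 1 on chromosome 13, had 22.8, 49.0 and 40.0 reads in ESC and 2, 0 and 0 in Fb, and its log2 fold change of 2.32 (SE 1.15, adjusted p by edgeR = 0.128) did not pass. It passed with no count filter (edgeR adjusted p = 0.0353) and without Fb replicate 1, which held both Fb reads (fitted log2 fold change 7.61, edgeR adjusted p = 0.0185), in a range up to 0.284. Where the Fb libraries left are all at 0, the fitted value depends on the prior count and is no bound.

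The miRNAs below the filter are given as reads. mmu-miR-467c-5p had 36, 39 and 13 reads in ESC and none in Fb, which made it at least 2.31-fold higher in ESC per miRNA read and at least 22.0-fold higher per assigned read against the same limit of 3 reads over the group. mmu-miR-467e-5p (12, 8 and 2 reads), mmu-miR-466h-3p (6, 9 and 3) and mmu-miR-466c-5p (1, 14 and 1) likewise had ESC reads and none in Fb. ESC replicate 2 alone held 14 of the 16 reads of miR-466c-5p. mmu-miR-466g had 20.3, 17.1 and 6.5 reads in ESC and 1, 0 and 1 in Fb, mmu-miR-669l-5p had 10, 8 and 16 beside 1, 0 and 0, mmu-miR-669h-5p had 12, 12 and 7 beside 0, 0 and 2, and mmu-miR-297a-5p had 2, 9 and 5.36 beside 0, 0 and 1. In CPM the groups of these last 4 overlapped.

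Over the 40 miRNAs with reads, 13 had every ESC library above every Fb library in CPM, 0 the reverse, and 27 overlapped. Among the 1060 mature miRNAs with any read the same shares were 17.7% and 12.7%. In CPM of all assigned reads 18 were higher in every ESC library, 0 lower and 22 overlapped, beside 39.6% and 3.58% of the 1060. On either scale, a miRNA with reads in each ESC library and none in Fb counts as higher, however few its reads. miR-466c-5p did so at 0.657 CPM in ESC replicate 3, whereas 3 reads in an Fb library are worth 16.9 to 61.2 CPM. The lower depth of the Fb libraries therefore limits these counts. The reads were concentrated in few miRNAs: the 3 with most ESC reads held 91.1% of the ESC reads of the group, the 10 with most 97.3%. An ESC library had reads of 25, 25 and 35 of the 80 miRNAs and an Fb library of 5, 3 and 6. All 10 miRNAs with an Fb read also had ESC reads.

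**Figure D3:**
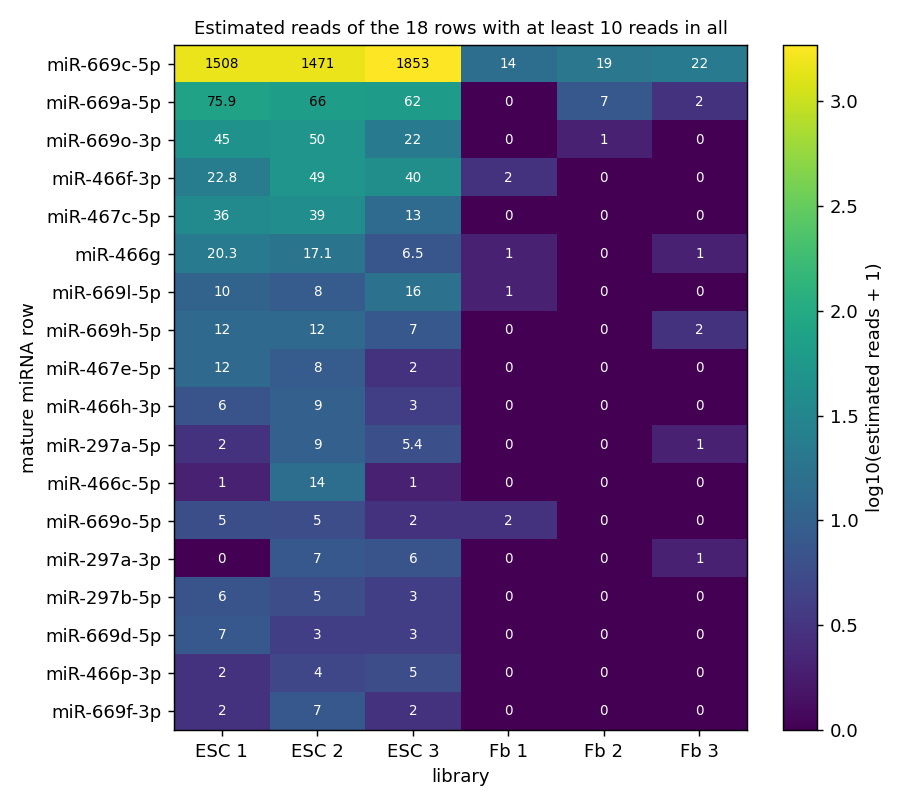
Estimated reads of the 18 miRNAs with at least 10 reads in total (vertical) in each library (horizontal), with the number in each cell and colour as log10 of the reads plus 1. ESC libraries hold reads of nearly every miRNA shown, and the Fb libraries hold few, led by miR-669c-5p with 14 to 22.

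The 2 arms of a hairpin were unequal in ESC exosomes. Of 33 names listed with both arms, 15 had at least 10 ESC reads, 10 of them with more from the 5p and 5 with more from the 3p arm. For 9 of the 15 every ESC read was from the 5p arm, among them miR-669c (4832 reads against 0), miR-669a, miR-467c, miR-669l and miR-669h. The 5p arm held 9.32% of the reads of miR-669o, 8.47% of miR-466h and 0.0813% of miR-466f, and the arms were nearest to equal in miR-297a (55.7% 5p) and miR-466p (46.3%). Summed over the families, 5p arms held 94.0%, 91.9% and 95.7% of reads in ESC and 85.0%, 96.3% and 93.1% in Fb, so the groups overlapped (exact two-sided permutation p = 0.7).

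Along the intron, reads could be placed for 29 hairpins that have a mature miRNA with a single-copy name. For Mir669d-2 and Mir669a-3 this was the 3p arm alone, with no reads. Any 5p reads of theirs fall under the multi-copy names miR-669d-5p and miR-669a-5p and could not be placed. Of the 29 hairpins, 19 had any ESC read so placed and 11 had at least 10. Mir669c, at chr2:10509296-10509404 (plus strand), is hairpin 57 of the 71 and starts 42633 bases after the first. Its nearest upstream neighbour, Mir297c, ends 182 bases before it and had 1 ESC read against 4832. The hairpins Mir669o (chr2:10514300-10514395), Mir466g (chr2:10514595-10514674) and Mir466h (chr2:10514891-10514971) follow each other in the annotation and had 129, 43.9 and 19.7 ESC reads. Mir467c (chr2:10473931-10474027), near the other end of the cluster at 7268 bases from its start, had 88. Upstream of Mir669c 5 of 19 such hairpins had at least 10 ESC reads and downstream 5 of 9. Mir669d-2 and Mir669a-3, placed by their 3p arm alone, are among the 19. The names with several copies could not be placed: miR-669a has 12, miR-466b 8, miR-466f and miR-297a 4 each, and miR-467a 10 copies, with 0 reads in every library.

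**Figure D4:**
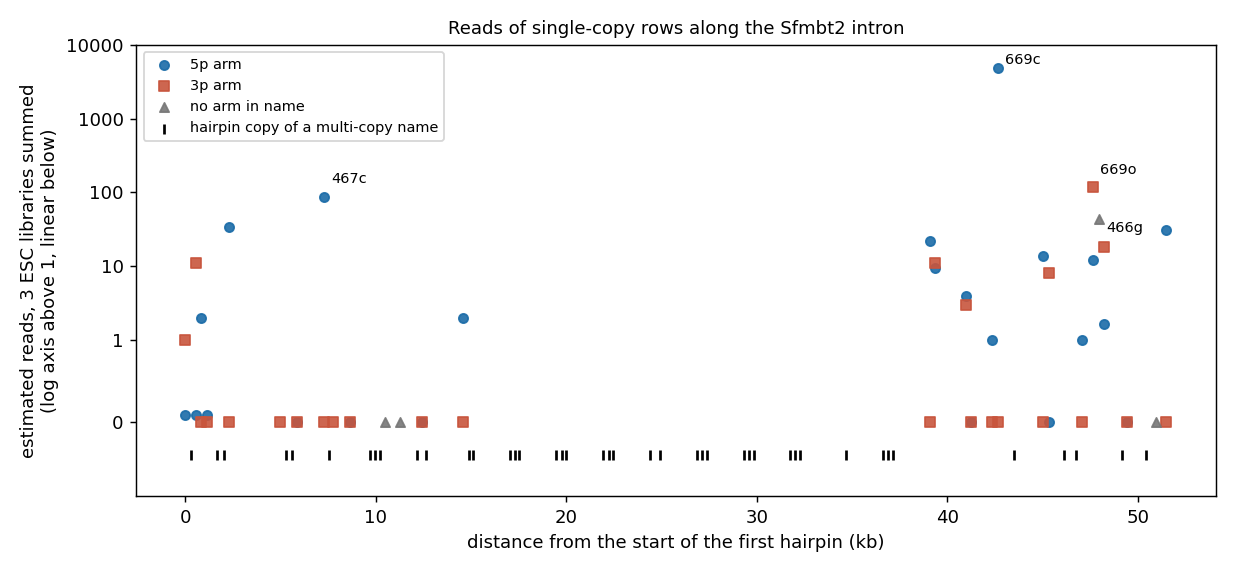
Estimated reads of single-copy miRNAs, summed over the 3 ESC libraries (vertical axis logarithmic above 1 and linear below), against the distance of their hairpin from the start of the first hairpin of the Sfmbt2 intron in kb. Circles are 5p arms, squares 3p arms, triangles miRNAs with no arm in the name and ticks the hairpin copies of multi-copy names, which fill the middle of the cluster; miR-669c-5p stands above the others.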

How the data were processed

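Small RNA was sequenced from exosomes of 3 ESC and 3 Fb cultures, grouped by sample title. Per the labels' protocols, exosomes were enriched from medium by filtration, concentration and ultracentrifugation, RNA was taken on SeraMir columns, and CleanTag libraries were cut from a gel by size. The submitters' processing notes name FastQC, cutadapt and build GRCm38. Not given in the sources used here: aligner, counter, use of strand, handling of reads with several matches. The authors deposited estimated counts per RNA for 16310 RNAs, with 82.6% to 92.2% of the nonzero values fractional in a library. Near-identical family members are therefore uncertain one by one.

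The miRNAs, marker lists and tests were chosen with earlier results of these data known. Estimated counts were summed per family and arm, then rounded. The main test was edgeR 4.0.16 under R 4.3.3 (quasi-likelihood, group alone in the model, TMM factors, filterByExpr minimum count 10 and total 15, Benjamini-Hochberg over all features, adjusted p of 0.05), with mature miRNA reads or all assigned reads as library size. Positive values mean higher in ESC. Permutation tests of shares were exact and two-sided (scipy 1.17.1). Intervals are exact Clopper-Pearson at 95%; without molecular identifiers, intervals and the limit of 3 reads cover counting error only. Hairpin positions came from GENCODE M21 and sequences from RefSeq. miRNAs were named if among the 12 with most reads, called, or first in their family, which gave 12; arm partners were named after their values were seen. Alternatives were DESeq2 1.42.0, limma-trend 3.58.1 (prior count 2), upper-quartile factors, library totals alone, no count filter, rounding first, a library size without the 3 most abundant miRNAs, arms by position, leaving out each library, and a block for the replicate number. The fit of all RNAs for the sum, and sums without miR-669c-5p or of intron members alone, were chosen after seeing the data. Simulated counts with known changes were used to test the fits.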

Additional observations from a re-analysis of the deposited data

How the results depend on the processing

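The log2 fold change of the sum of all 80 miRNAs kept its direction and stayed past the threshold under 17 of 17 alternatives, from 1.87 (without miR-669c-5p) to 3.84 (all RNAs), with adjusted p from 2.59e-14 to 0.0464, and from 2.77 to 3.11 when 1 library was left out. For this sum, libraries were left out in the fit of mature miRNAs only. Its call among all RNAs was not tested that way. Library totals alone gave 2.31, while moving the median of all features from -0.15 to -0.56, and a library size without miR-21a-5p, miR-199b-3p and let-7c-5p moved it to 0.28. The excess of ESC over Fb was 0.102% of mature miRNA reads (0.0960 to 0.109 leaving out 1 library, 0.0112 without miR-669c-5p) and 0.0177% of all assigned reads (0.0168 to 0.0187, and 0.00252).

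Counts of calls moved more. With no count filter 4 family and arm sums and 4 single miRNAs were called among mature miRNAs in place of 2 and 2, and 7 sums among all RNAs in place of 3; more features were tested. Leaving out 1 library gave 1 to 4, 1 to 3 and 0 to 3. With the replicate number as a block the sum of all 80 had a log2 fold change of 2.81 (edgeR adjusted p = 0.00418), and 1 arm sum and 1 single miRNA were called in place of 2 and 2, the miR-669 3p sum (adjusted p = 0.0535) and miR-669o-3p (0.0641) no longer passing; the cause was not tested. Deviations of same-numbered libraries from their group mean correlated at -0.27, -0.15 and -0.16. Those of the other pairs correlated at -0.25 to 0.36. With 3 libraries per group, this cannot tell whether same-numbered libraries share more than a number. Depth limits the Fb values, which rest on 20 to 29 reads per library.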

Other observations

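Other miRNA clusters known from embryonic or germline cells had few reads in these exosomes. Of 18 miRNAs of the miR-290 to miR-295 cluster, which is known from mouse embryonic stem cells, 2 had reads, 0.667 read in total in each group. Of 32 miRNAs of an X-linked cluster known from testis, 4 had reads, 6 in ESC and 0 in Fb libraries. Depth limits the Fb counts: 3 reads over the group are worth 8.68 CPM in Fb and 0.683 CPM in ESC. A difference between the groups was not tested.

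The unprocessed hairpins of the 4 families are listed apart from the mature miRNAs. Reads were assigned to 22 of 82 hairpins, 9.55, 8.60 and 15.0 reads in ESC and 2.91, 1.13 and 0.341 in Fb libraries. The hairpin of miR-466q had most, 8.30 reads in total, while its mature miRNA stood at 0, and the hairpin of miR-669c had 0.00712 read. In ESC replicate 3, 7 mature miRNAs of the families each held 1 part in 11 of a read, within a tolerance of 1e-06.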
